A study of Mus musculus with 4 samples.

Results

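The genes described here are 8 transcripts of mast cells: the granule proteases Cpa3, Mcpt4, Cma1, Tpsb2 and Tpsab1, the IgE receptor subunits Ms4a2 and Fcer1a, and the histamine-forming enzyme Hdc. They were taken from 18193 genes that had at least 1 probe set listed with a single gene symbol, and all 8 had one, with 11 probe sets in all. RNA came from the whole dorsal skin of male C57B6 mice at postnatal day 59 (P59, late telogen, 2 arrays) and at postnatal day 54 (P54, middle telogen, 2 arrays), and telogen is the resting phase of the hair cycle. No treatment or genetic change is named in the labels, and the animals behind each array are not given. Values are log2 intensities, and a gene with several probe sets is given by its brightest set, by mean over all 4 arrays. Only 4 of the 8 genes, Cpa3, Mcpt4, Cma1 and Tpsb2, lay above the intensity filter of 6.58 (log2) that set which 10916 genes were tested.

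Mast cells are tissue-resident immune cells of the dermis, where they lie near vessels, nerves and hair follicles. Their granules store proteases bound to the proteoglycan serglycin, together with histamine, and the content is released when antigen crosslinks IgE held by the high-affinity receptor on the cell surface. In mouse skin the cells are of the connective tissue type, which carries Cpa3, the chymases encoded by Mcpt4 and Cma1 and the tryptase encoded by Tpsb2. Mast cell number and degranulation around follicles are known to vary over the mouse hair cycle. In whole skin, fewer mast cells and less transcript per mast cell cannot be told apart.

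GATA-binding factors, Gata2 above all, are known to act on the genes that give mast cells their identity. Of the 8 genes, 6 had a window in the RefSeq promoter table (GRCm38.p6), and the 250 bases before the annotated start were searched for AGATAA and TGATAA on both strands. At least 1 match was found in 4 of these 6 windows, those of Cpa3, Mcpt4, Ms4a2 and Fcer1a, against 16.6% of 32851 windows of the same length over all genes. The windows of Cma1 and Hdc held none of these letters. The 3 proteases with the clearest signal and the receptor subunit with the largest difference follow, 5′ to 3′ in the direction of transcription, with the matches in capitals.
Cpa3 (chr3:20242182-20242431, minus strand): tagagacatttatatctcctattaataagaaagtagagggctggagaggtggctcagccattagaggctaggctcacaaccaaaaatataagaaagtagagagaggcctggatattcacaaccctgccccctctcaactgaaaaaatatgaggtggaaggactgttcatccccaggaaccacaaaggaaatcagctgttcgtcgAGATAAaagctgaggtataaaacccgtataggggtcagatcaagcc
Mcpt4 (chr14:56062311-56062560, minus strand): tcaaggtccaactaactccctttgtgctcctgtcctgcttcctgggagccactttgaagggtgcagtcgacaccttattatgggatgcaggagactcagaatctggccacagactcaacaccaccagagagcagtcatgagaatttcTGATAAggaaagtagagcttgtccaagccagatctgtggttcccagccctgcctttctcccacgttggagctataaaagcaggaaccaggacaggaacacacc
Cma1 (chr14:55944676-55944925, minus strand): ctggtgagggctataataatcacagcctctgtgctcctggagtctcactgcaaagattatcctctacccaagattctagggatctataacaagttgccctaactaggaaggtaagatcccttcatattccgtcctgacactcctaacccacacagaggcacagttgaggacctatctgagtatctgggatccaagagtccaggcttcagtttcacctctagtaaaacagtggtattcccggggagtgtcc
Fcer1a (chr1:173227230-173227479, minus strand): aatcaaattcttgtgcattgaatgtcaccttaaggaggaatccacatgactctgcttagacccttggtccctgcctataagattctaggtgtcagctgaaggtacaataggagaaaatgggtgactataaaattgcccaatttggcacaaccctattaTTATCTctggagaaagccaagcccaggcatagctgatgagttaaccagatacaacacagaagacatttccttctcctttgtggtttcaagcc
The match of Cpa3 begins 46 bases before the start and that of Mcpt4 103 bases before it, both on the coding strand. That of Fcer1a begins 92 bases before the start and reads AGATAA on the other strand. The letters TATAAA, searched in the same way, begin 31 bases before the start of Cpa3, 32 bases before that of Mcpt4 and 125 bases before that of Fcer1a, with a further match on the other strand of Cpa3 at 242 bases. They occur in 3 of the 6 windows, and 12.4% of all windows hold them on either strand. The E-box letters CANNTG, where N is any base, were searched too. They occur in 4 of the 6 windows, near the share of 66.2% of all windows. Gata2 itself, measured on the same arrays, was at 8.30 and 8.37 at P59, against 8.31 and 8.01 at P54. Its P59 arrays overlapped the P54 arrays (difference 0.17, 95% interval -0.34 to 0.69, limma adjusted p = 0.959). A match is a description of the letters, not of binding.

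The proteases of connective tissue mast cells were measured above the filter in telogen skin at both days, and none of the 8 genes passed the adjusted threshold, in the fit with the filter or in the one without it. Cma1 was 1.497-fold higher at P59 on average and Cpa3 1.27-fold higher, whereas Mcpt4 and Tpsb2 were at 0.998 and 0.920 of their P54 level. Fcer1a, which was below the filter, had the largest average difference of the 8, 2.82-fold higher at P59. Past an adjusted p of 0.05 in limma were 0 of the 4 genes tested, against 0.0183% of all genes tested. At an unadjusted p under 0.05 there was 1 of the 4, Cma1, against 6.49% of all genes tested.

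**Figure D1:**
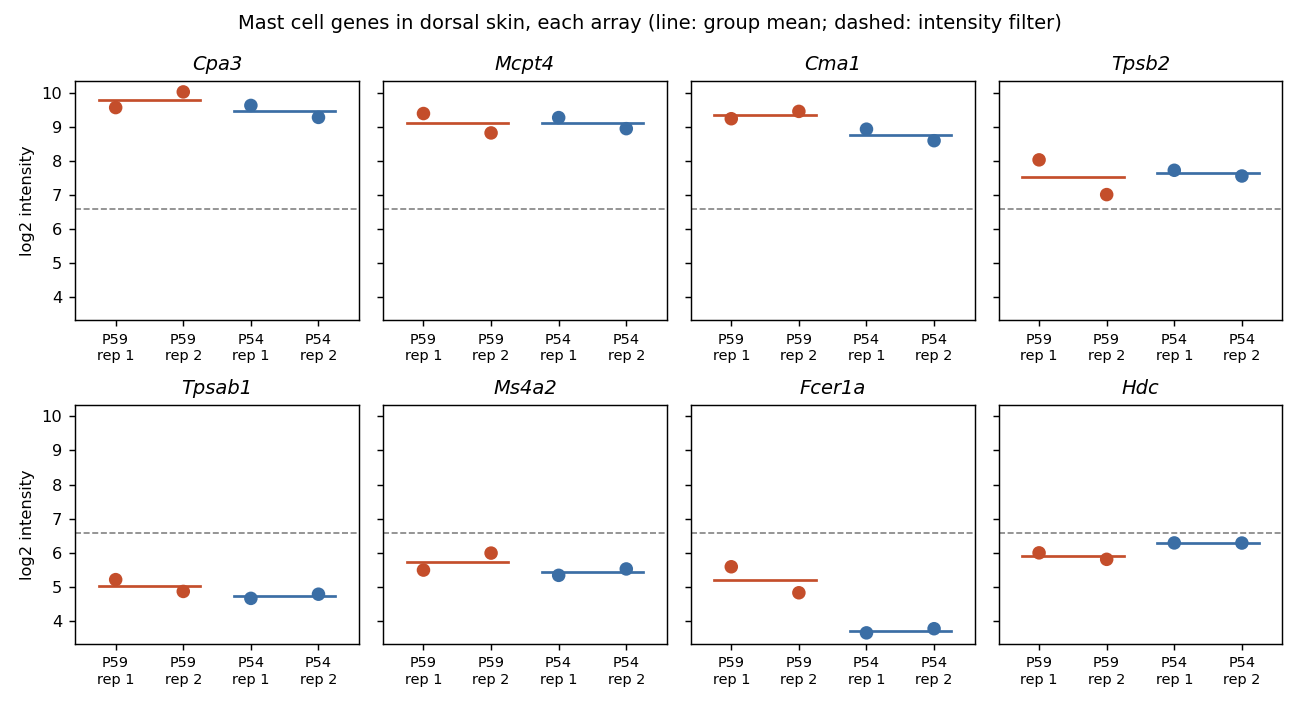
Log2 intensity (vertical axis) of each mast cell gene on each of the 2 P59 arrays and 2 P54 arrays; points are arrays, solid lines group means and the dashed line the intensity filter of 6.58. Cpa3, Mcpt4, Cma1 and Tpsb2 lie above the filter on every array, and the P59 and P54 points are separate in Cma1, Tpsab1, Fcer1a and Hdc.

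Cpa3 encodes mast cell carboxypeptidase A, a granule protease that trims peptides from their carboxyl end. Its log2 intensity was 9.56 and 10.02 in P59 replicates 1 and 2, against 9.62 and 9.27 in P54 replicates 1 and 2. P59 replicate 2 was the highest array and P59 replicate 1 lay between the P54 arrays, so the groups overlapped. The group means were 9.79 ± 0.32 at P59 and 9.45 ± 0.25 at P54 (SD, n = 2 per group). The difference of 0.34 (95% interval -0.23 to 0.91) had an adjusted p of 0.917 in limma, and lay between 0.11 and 0.57 when each array was left out in turn. It was 0.11 without P59 replicate 2 and 0.17 without P54 replicate 2.

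Cma1 encodes the chymase also called mouse mast cell protease 5, which is stored in complex with carboxypeptidase A in the granule. It was at 9.24 and 9.45 in the P59 arrays, against 8.93 and 8.59 in the P54 arrays. Both P59 arrays were above both P54 arrays, which was so, in the direction of P59 higher, for 18.9% of all genes tested. The mean log2 intensities were 9.34 ± 0.15 at P59 and 8.76 ± 0.24 at P54, a difference of 0.58 (SE 0.24, 95% interval 0.05 to 1.11). The unadjusted p was 0.0343 and the adjusted p 0.723 in limma. With each array left out the difference stayed between 0.41 and 0.75, though the unadjusted limma p ran from 0.0216 to 0.329.

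Mcpt4 encodes the chymase held to be the main one of mouse connective tissue mast cells. It lay at 9.39 and 8.82 at P59, against 9.27 and 8.94 at P54. The P59 arrays were the highest and the lowest of the 4, with the P54 arrays between them. Its means were 9.10 ± 0.40 at P59 and 9.11 ± 0.23 at P54, and the difference was -0.0035 (95% interval -0.59 to 0.58, limma adjusted p = 0.9999). The interval leaves room for a change of about that of Cma1 in either direction. After centring each array on its median the difference was 0.029, without P59 replicate 2 it was 0.28, and without P59 replicate 1 it was -0.29.

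Tpsb2 encodes the tryptase also called mouse mast cell protease 6, which is kept in the granule on heparin. The used probe set was at 8.03 and 7.01 at P59, against 7.73 and 7.56 at P54. As for Mcpt4, the P59 arrays were the highest and the lowest of the 4. The means were 7.52 ± 0.72 at P59 and 7.64 ± 0.12 at P54, and the difference was -0.12 (95% interval -0.83 to 0.59, limma adjusted p = 0.984). It was 0.39 without P59 replicate 2 and -0.63 without P59 replicate 1. A second probe set of Tpsb2, far below the filter, was at 4.52 and 4.10 at P59, against 4.50 and 4.04 at P54, and differed by 0.04.

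Between the P54 arrays the 4 proteases thus moved in the same direction, and between the P59 arrays they did not. This pattern was chosen after the values were seen and is given without a test. In P54 replicate 1 all 4 were higher than in P54 replicate 2: Cma1 by 0.34, Cpa3 by 0.35, Mcpt4 by 0.32 and Tpsb2 by 0.17. That direction was shared by 72.8% of all genes tested, with a median size of 0.19. In P59 replicate 2, set against P59 replicate 1, Cpa3 was higher by 0.46 and Cma1 by 0.22. The value was -0.57 for Mcpt4 and -1.02 for Tpsb2. Of all genes tested, 62.1% were higher in P59 replicate 2 than in P59 replicate 1, and the median size was 0.30. The rise of Cma1 was smaller than that size. The log2 ratio of Cma1 to Mcpt4 within an array, relative to its P54 mean, was 0.19 and 0.98 at P59 and 0.01 and -0.01 at P54. For Cpa3 over Tpsb2 it was -0.28 and 1.20 at P59 and 0.09 and -0.09 at P54. The split was thus seen mainly in P59 replicate 2. On the same scale, Cpa3 over Cma1 was at -0.36 and -0.12 at P59, and Mcpt4 over Tpsb2 at -0.11 and 0.34. The P54 values of a ratio mirror each other because they are set against their own mean.

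**Figure D2:**
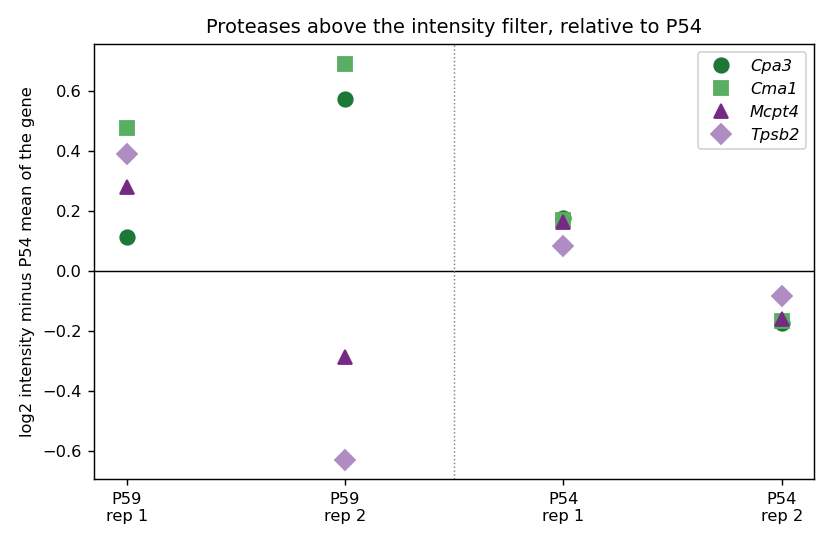
Log2 intensity of Cpa3, Cma1, Mcpt4 and Tpsb2 on each array minus the gene's own P54 mean (vertical axis), with the 2 P59 arrays left of the 2 P54 arrays; each symbol is 1 gene on 1 array. In P59 replicate 2 Cma1 and Cpa3 lie above 0 and Mcpt4 and Tpsb2 below it, whereas all 4 lie above 0 in P59 replicate 1 and in P54 replicate 1.

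P59 replicate 2 also lay farthest from the other arrays in the median gene. The median gene tested lay 0.27 from the mean of the other 3 arrays there, against 0.17 in P59 replicate 1 and 0.14 and 0.21 in P54 replicates 1 and 2. Spearman correlations across all probe sets ran from 0.959 to 0.990, and by their mean with the other arrays P59 replicate 2 (0.972) and P54 replicate 2 (0.970) were both below P59 replicate 1 (0.979) and P54 replicate 1 (0.983). In P59 replicate 2, 13.1% of genes tested were at least as far below the other arrays as Mcpt4 and 5.23% as far as Tpsb2, and 9.07% and 9.25% at least as far above them as Cpa3 and Cma1. In some genes, probe sets of the same gene also moved differently between P59 replicates 1 and 2. Ikzf1 was at 7.65 and 8.19 in them on its used set but at 6.395 and 5.66 on the other, which was below the filter. Stat5a was lower in P59 replicate 2 on both sets, but by different amounts. It was at 8.48 and 8.15 on its used set and at 7.08 and 4.58 on the other. As for Ikzf1, the sets of Kit, Csf2rb, Inpp5d and Ms4a2 went opposite ways. Those of Gata2, Tgfb1, C1qb and Hdc went the same way, and those of Kitl were mixed. The share of all genes whose sets went opposite ways was not counted. Cpa3, Cma1 and Mcpt4 had a single set each, so their values there have no second set to set beside them. The second set of Tpsb2, far below the filter, was at 4.52 in P59 replicate 1 and lower, at 4.10, in P59 replicate 2. The part of this array's wider difference in the split was not tested.

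Tpsab1 encodes the other granule tryptase, mouse mast cell protease 7, and is listed by RefSeq as a transcribed pseudogene in the C57BL/6J genome. Its probe set was below the filter on every array, at 5.22 and 4.87 at P59, against 4.67 and 4.79 at P54. The 2 groups did not overlap, but the step between the nearest P59 and P54 arrays was small. The difference was 0.31 (95% interval -0.16 to 0.79), with an adjusted p of 0.855 in limma's fit of all 18193 genes without the filter, and it was 0.14 without P59 replicate 1. Tpsab1 and Tpsb2 are close relatives, and how far a probe set of either also takes up the other was not tested.

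Fcer1a encodes the alpha chain of the high-affinity IgE receptor, the chain that holds IgE. It was at 5.59 and 4.83 at P59, against 3.66 and 3.78 at P54, that is at intensities of 48.3 and 28.5 at P59 and 12.6 and 13.7 at P54. Both P59 arrays were above both P54 arrays, and every value lay below the filter, so the fold is rough. The means were 5.21 ± 0.54 at P59 and 3.72 ± 0.09 at P54. In the fit without the filter the difference was 1.49 (SE 0.27, 95% interval 0.85 to 2.14), with an unadjusted p of 0.00106 and an adjusted p of 0.384 in limma. Without the filter 6.17% of genes had an unadjusted p under 0.05 and 0 passed adjusted. The difference was 1.88 without P59 replicate 2 and 1.11 without P59 replicate 1. Basophils and some dendritic cells carry this chain too.

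Ms4a2 encodes the beta chain, which passes on and amplifies the receptor's signal in mast cells and basophils. Its used probe set was at 5.50 and 5.99 at P59, against 5.34 and 5.53 at P54. P59 replicate 1 lay between the P54 arrays. The difference was 0.31 (95% interval -0.23 to 0.85, limma adjusted p = 0.868 without the filter), and 0.06 without P59 replicate 2. The second probe set was at 5.00 and 4.87 at P59, against 4.89 and 4.34 at P54, with a difference of 0.32. Both sets of Ms4a2 were below the filter.

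Fcer1g, the signalling gamma chain shared with other Fc receptors and so with macrophages, was well above the filter at 9.60 and 9.60 at P59, against 9.24 and 9.08 at P54. Its groups did not overlap with P59 higher, as for 18.9% of all genes tested. The difference was 0.44 (95% interval -0.05 to 0.94, limma adjusted p = 0.835). Macrophage markers, 10 of 10 above the filter, were on average higher at P59 in 9 and lower in 1, where 58.4% of all genes tested were higher. Their summed intensity was 12101 and 12633 at P59 and 10255 and 9436 at P54. Their part in the difference of Fcer1g was not tested.

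Hdc encodes histidine decarboxylase, which makes histamine. It was the 1 gene of the 8 whose groups did not overlap with P59 lower, which held for 12.3% of all 18193 genes. It was at 6.001 and 5.81 at P59, against 6.29 and 6.29 at P54. The P54 arrays were almost equal and both P59 arrays lay below them, all under the filter. The difference was -0.38 (95% interval -0.81 to 0.04, limma adjusted p = 0.829 without the filter). The second probe set was at 5.26 and 4.98 at P59, against 5.67 and 5.26 at P54, with a difference of -0.35. P59 replicate 1 and P54 replicate 2 were almost equal on that set, and both sets carry the array maker's mark for sets that may take up further transcripts.

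Over the 8 genes, 5 were higher and 3 lower at P59 on average, where 62.3% of all 18193 genes were higher. The groups did not overlap for 4 of the 8, against 35.6% of all genes. The median log2 difference was 0.31, against 0.07 for all genes. The groups were separate with P59 higher in 3 of the 8 genes, against 23.3% of all genes, and separate with P59 lower in 1 of the 8, against 12.3%. Among the 4 genes tested, 2 were higher and 2 lower (58.4% of all genes tested were higher), with a median of 0.17 against 0.05 for all genes tested. With 4 arrays, these counts do not set the 8 genes apart from other genes. Their summed intensity was 2484 and 2497 at P59, against 2262 and 1852 at P54, with P54 replicate 2 the lowest array.

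**Figure D3:**
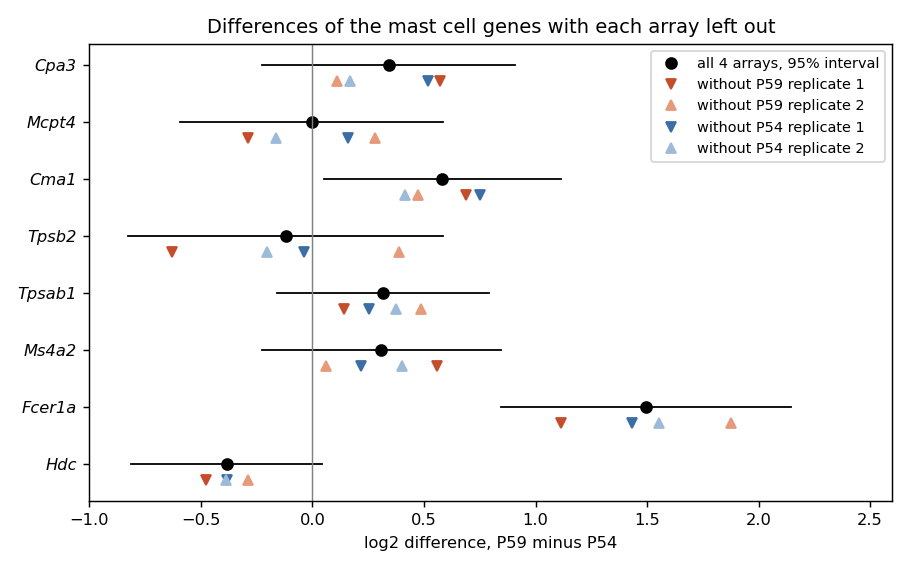
Log2 difference, P59 minus P54 (horizontal axis), of each mast cell gene: black points with lines are the values from all 4 arrays with limma's 95% interval, and triangles those with 1 array left out. Mcpt4 and Tpsb2 lie on both sides of 0 depending on the array left out, from -0.29 to 0.28 and from -0.63 to 0.39, whereas Cma1 stays between 0.41 and 0.75 and Fcer1a between 1.11 and 1.88.

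Other granule constituents were few above the filter. Of 15 genes listed, 11 had a probe set of their own and 3 were tested: 2 were higher, 1 lower and 0 past the adjusted threshold. Srgn, the serglycin core protein to which the proteases bind, and which other blood-derived cells also make, was at 10.24 and 10.64 at P59, against 10.30 and 9.84 at P54. Its order over the arrays was that of Cpa3 (difference 0.37, limma adjusted p = 0.917), and the difference was 0.14 without P54 replicate 2 and 0.17 without P59 replicate 2. Ndst2, a sulfotransferase needed for heparin in mast cells, differed by 0.13 (adjusted p = 0.971; -0.07 without P59 replicate 1), and Ctsd, a lysosomal protease of many cells, by -0.55 (adjusted p = 0.917), or 0.22 without P59 replicate 2. The mucosal mast cell proteases Mcpt1 and Mcpt2 lay between 3.64 and 3.89 and between 4.61 and 4.93 on the 4 arrays, below the filter throughout.

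Receptors and lineage factors of mast cells were higher at P59 in 8 of the 9 members tested, against 58.4% of all genes tested. Of these 9 members, 1 was lower and 0 were past the adjusted threshold. The median difference was 0.26, against 0.05 for all genes tested. Kit, the receptor for stem cell factor, on which mast cells and pigment cells depend, was at 7.68 and 7.998 at P59, against 7.62 and 7.03 at P54. The P59 arrays were both above the P54 arrays, as for 18.9% of all genes tested, though by little in P59 replicate 1. The difference was 0.51 (95% interval -0.08 to 1.10, limma adjusted p = 0.845). It was 0.22 without P54 replicate 2. A second probe set of Kit lay between 5.65 and 6.12 and differed by -0.03. Lmo2, a partner of GATA factors in blood and endothelial cells, differed by 0.51 (adjusted p = 0.770), the lymphoid and myeloid factor gene Ikzf1 by 0.50 (adjusted p = 0.835) and Csf2rb, the beta chain of the interleukin-3 receptor, by 0.46 (adjusted p = 0.870). Without P59 replicate 2 Ikzf1 differed by 0.22 and Csf2rb by 0.16, and their second probe sets differed by 0.20 and 0.17. Pigment cell markers, 5 of 6 above the filter, were higher at P59 in 2 and lower in 3. The summed intensity of these 5 was 1129 and 1125 at P59 and 1051 and 907 at P54, and without Mlana, a melanosome gene, it was 920 and 597 at P59 and 892 and 774 at P54. Their part in the level of Kit was not tested.

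Mrgprb1, a receptor gene of the Mas-related family that is expressed in mouse skin mast cells, was named after its values were seen. It was at 6.22 and 6.69 at P59, against 5.34 and 5.12 at P54. The groups were separate with P59 higher, which held for 23.3% of all 18193 genes, and the mean of 5.84 was below the filter. In limma's fit without the filter the difference was 1.23 (95% interval 0.70 to 1.76, unadjusted p = 0.00103, adjusted p = 0.384). It lay between 0.996 and 1.46 with each array left out. In the fit without the filter 6.17% of all genes had an unadjusted limma p under 0.05.

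The signalling genes of the IgE receptor were tested in 12 of 16 members. Of these, 9 were higher at P59 (58.4% of all genes tested were), 3 lower and 0 past the adjusted threshold. Their median difference was 0.16, against 0.05 for all genes tested, and the groups did not overlap with P59 higher in 6 of the 12, against 18.9% of all genes tested. Inpp5d, a phosphatase that restrains mast cell degranulation, was at 8.30 and 8.74 at P59, against 8.14 and 7.67 at P54. It had an unadjusted limma p of 0.0416 and an adjusted p of 0.755 (difference 0.61), and a second probe set differed by -0.12. The adaptor genes Lat and Lcp2, which T cells use too, differed by 0.47 (adjusted p = 0.835) and 0.52 (adjusted p = 0.870). Without P54 replicate 2 the differences were 0.38 for Inpp5d, 0.31 for Lat and 0.22 for Lcp2, and without P59 replicate 2 those of Inpp5d and Lcp2 were 0.39 and 0.24. T cell markers, 5 of 8 above the filter, were higher at P59 in 4 and lower in 1. The summed intensity of the 6 with a probe set, including Cd8a below the filter, was 1874 and 2168 at P59 and 1924 and 1766 at P54. Most of that sum was Thy1, at 1070 and 1286 at P59 and 1108 and 1077 at P54. Fcer1g, which macrophages share, is on this list of signalling genes too. Macrophage markers were higher at P59 in 9 of 10, with a summed intensity of 12101 and 12633 at P59 and 10255 and 9436 at P54. The part of T cells and macrophages in the differences of the signalling genes was not tested.

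Of the genes for lipid mediators, 4 of 5 tested members were lower at P59, 1 higher and 0 past the adjusted threshold (median difference -0.22). Of all genes tested, 58.4% were higher at P59. Hpgds, the prostaglandin D2 synthase of mast cells and other immune cells, was at 7.50 and 7.49 at P59, against 7.97 and 7.69 at P54. The groups were separate with P59 lower, as for 12.3% of all 18193 genes, and the difference was -0.34 (limma adjusted p = 0.909). Ltc4s, the leukotriene C4 synthase gene, differed by -0.42 (adjusted p = 0.875), Pla2g4a, the cytosolic phospholipase A2 gene, by -0.22 (adjusted p = 0.952) and Alox5ap, which presents arachidonic acid to 5-lipoxygenase, by 0.36 (adjusted p = 0.893). The groups of Ltc4s were separate too, with P59 lower. Those of Alox5ap were separate with P59 higher, as for 18.9% of all genes tested. Leaving out 1 array brought Ltc4s to -0.18 (without P59 replicate 2), Pla2g4a to -0.04 (without P59 replicate 1), Hpgds to -0.19 (without P54 replicate 1) and Alox5ap to 0.22 (without P54 replicate 2).

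Of the growth and activating factors, 3 of 9 were tested, 1 higher and 2 lower, with 0 past the adjusted threshold. Kitl, which encodes stem cell factor, was at 9.58 and 9.98 at P59, against 10.06 and 9.70 at P54, and the groups overlapped (difference -0.10, adjusted p = 0.981). The direction of Kitl turned without P59 replicate 1 (0.09) or P54 replicate 1 (0.08). Il33, an alarmin to which mast cells respond, was at 9.05 and 8.93 at P59, against 8.96 and 8.93 at P54 (difference 0.05, 95% interval -0.45 to 0.55, adjusted p = 0.998; -0.0085 without P59 replicate 1). Tgfb1, which draws mast cells and acts on many others, was at 8.08 and 5.77 at P59, against 7.95 and 8.10 at P54. Only P59 replicate 2 was low, and without it the difference of -1.10 (adjusted p = 0.835) became 0.06. Of the histamine receptors and histamine-degrading enzymes, 0 of 6 were above the filter by their mean. Hnmt, a degrading enzyme named after its values were seen, came nearest with a mean of 6.53. It was at 6.46 and 7.49 at P59, against 6.41 and 5.77 at P54. Its groups were separate with P59 higher, as for 23.3% of all 18193 genes. The difference was 0.88 (limma adjusted p = 0.807 without the filter), or 0.36 without P59 replicate 2.

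**Figure D4:**
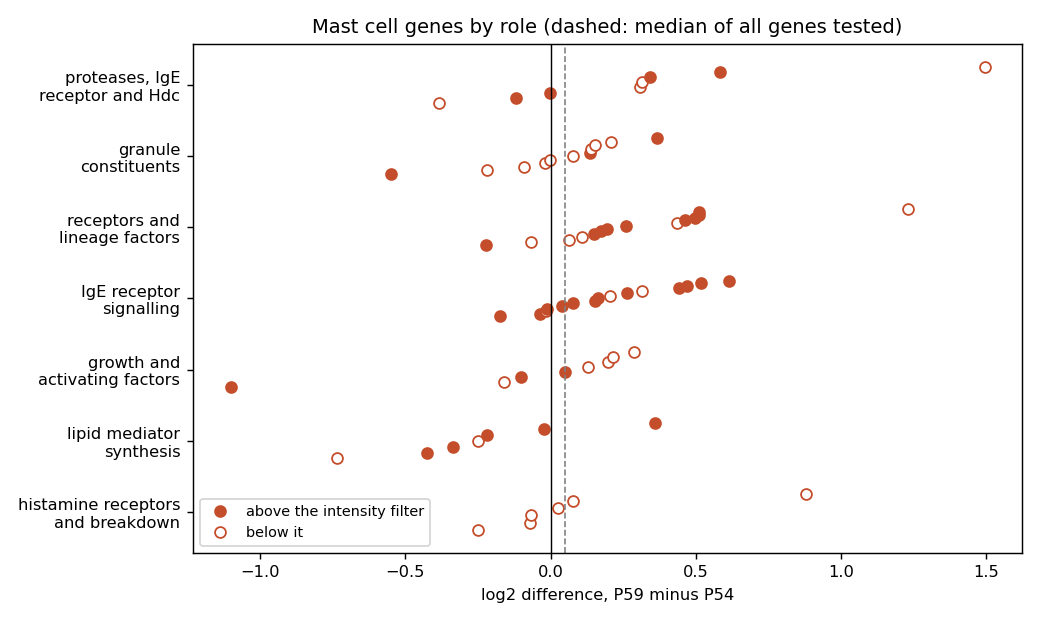
Log2 difference, P59 minus P54 (horizontal axis), of each gene with its own probe set, by role; filled points are genes above the intensity filter, open points those below it, and the dashed line marks the median of all genes tested, 0.05. Of the tested receptors and lineage factors 8 of 9 lie right of 0, as do 9 of 12 IgE signalling genes, and 4 of 5 lipid mediator genes lie left of it. Of all genes tested, 58.4% were higher at P59.

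Markers of other cells that share transcripts with mast cells were checked on the same arrays. The basophil markers Mcpt8 and Cd200r3 were below the filter, with Mcpt8 between 4.41 and 4.73 and Cd200r3 between 3.47 and 3.84, and none of the 6 neutrophil markers with a probe set was above it. Langerhans and dendritic cell markers, 5 of 7 above the filter, were higher at P59 in 5 and lower in 0, where 58.4% of all genes tested were higher. The intensity summed over all 7 was 2742 and 3980 at P59 and 3051 and 2624 at P54. Most of that sum was Epcam, at 1778 and 2275 at P59 and 1732 and 1773 at P54. Cd207, which marks Langerhans cells, was at 8.46 and 9.30 at P59, against 8.63 and 8.20 at P54, in the same order over the arrays as Cpa3. Dermal fibroblast markers, all 8 above the filter, summed to 97770 and 103279 at P59 and to 99760 and 97171 at P54. Hair matrix and sheath markers, which differed most between the arrays of these lists, summed to 11446 and 2158 at P59 and to 795 and 316 at P54. The part of these cell types in the differences of the mast cell genes was not tested.

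By root mean square difference of log2 values centred on each gene's own mean over the 4 arrays, the genes most like the mean of the 4 tested proteases were Ciao3 (0.010), Particl (0.013), Kpnb1 (0.017), Mlycd (0.019) and Mrps23 (0.020). The proteases themselves were farther from their own mean, at 0.16 for Mcpt4, 0.25 for Cma1, 0.25 for Cpa3 and 0.33 for Tpsb2, where the median over all other genes tested was 0.24. Of the other genes tested, 77.7% were nearer to that mean than Tpsb2, 57.1% nearer than Cpa3, 54.8% nearer than Cma1 and 20.1% nearer than Mcpt4, although the proteases are part of the mean.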

How the data were processed

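Expression was measured in whole dorsal skin on 4 Affymetrix arrays, 2 per day. The table deposited by the authors holds an intensity for each probe set, linear and not logged, from 6.41 to 24000; the submitters' processing notes name RMA and Affymetrix Expression Console, with no versions given in the sources used here. RMA draws arrays to a common distribution, so a difference is relative to the other transcripts. Depth does not apply, and the number of arrays limits the precision.

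Values were taken to log2 with no pseudocount. Of 45101 probe sets, the platform annotation at GEO (possibly outdated) gave 34958 a single symbol, 932 several and 9211 none; 34754 of the first matched RefSeq (GRCm38.p6) by Entrez identifier, with 0 renamed. Control sets and sets with several symbols were left out. Genes whose mean log2 intensity was over the 40th percentile (6.58) were tested with limma 3.58.1 in R 4.3.3 (functions lmFit and eBayes), with Benjamini-Hochberg adjustment across the 10916 genes. Genes below it carry values from the same fit without the filter. Figures were drawn in matplotlib 3.10.9. Intervals are at 95% and are not adjusted. The labels name biological replicates without saying which animals they are, so p-values measure the spread between these samples. In limma that spread is moderated: with 2 residual and 8.18 prior degrees of freedom, each gene's variance is drawn strongly towards that of the other genes. An exact permutation test of 2 arrays against 2 cannot go below p = 0.333, two-sided, and none was run.

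The genes and lists were chosen with earlier results of these data known. All 8 genes are named; from each other mast cell list up to 4 tested genes with the smallest p, the rest as said. The procedure was tested on simulated data. Alternatives changed the filter, the probe set rule, the normalization, the variance prior, the replicate block and the arrays used.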

Additional observations from a re-analysis of the deposited data

How the results depend on the processing

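No mast cell gene of the 8 passed the adjusted threshold in limma in any of the 12 alternatives that tested it, and Cpa3, Cma1, Tpsab1, Ms4a2, Fcer1a and Hdc kept their direction in all 12. Mcpt4 turned to positive after centring on array medians (0.029), without P59 replicate 2 (0.28) and without P54 replicate 1 (0.16), so that with an array left out it ran from -0.29 to 0.28. Tpsb2 turned without P59 replicate 2 (0.39) and otherwise lay between -0.63 and -0.04. The median over the 8 genes was 0.31 and ran from 0.23 without P54 replicate 1 to 0.35 without P59 replicate 1. Over all genes, the 2 past the adjusted threshold became 0 with no filter, with a filter at the 60th percentile, with the mean of all probe sets, with each probe set by itself and after quantile normalization once more, and 156 with the replicate block. With an array left out they were 29 to 402. The 708 genes at an unadjusted p under 0.05 became 1122 with no filter and 457 with the stricter filter, which test more and fewer genes, and 273 to 2030 with an array left out. With the replicate block the unadjusted limma p of Cma1 was 0.0579, and no call of the 8 genes changed. The titles link same-numbered arrays by nothing but the number, and do not say whether they were handled together. Their deviations from the group means correlated at -0.04 over genes, a single value that does not settle whether they were paired. The cause of the change with the replicate block was not tested, nor was that of the other changes. Signal near background limits Fcer1a, Ms4a2, Tpsab1 and Hdc.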
